A study of Homo sapiens with 39 samples.

Results

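The gene group described here is a set of 34 target genes of the transcription factor p53, followed across HCT116 cells that carry different isoforms of hepatocyte nuclear factor 4 alpha (HNF4A). The genes were chosen by name, as rows with exactly these gene names in all 13 deposited tables, and all 34 were found among the 45446 rows of each table. HCT116 is a human colorectal cancer line. The parental group was the empty Flp-In T-REx line, without any HNF4A insertion. The other 12 groups were stable lines, 1 for each human HNF4A isoform (1 to 12), with a single copy of that isoform fused at its C-terminus to GFP and switched on by doxycycline. All 13 groups received 2.5 µg/ml doxycycline for 48 h, and each was measured in 3 libraries of poly(A) RNA. Before induction the parental cells were kept in blasticidin S (5 µg/ml) and zeocin (100 µg/ml). The 12 lines were kept in blasticidin S (5 µg/ml) and hygromycin B (100 µg/ml), and these antibiotics were withdrawn at induction. Zeocin is a bleomycin-type antibiotic that breaks DNA, a classical stimulus of p53, and the labels give it for the medium of the parental cells and not for that of the 12 lines. No group expressed GFP alone and each isoform was represented by 1 line, so the isoform, GFP, the antibiotic before induction and the history of a line cannot be told apart in a comparison with the parental cells. The labels do not say that the 3 libraries of a group came from separate cultures, so p-values measure the spread between these libraries, which may be technical.

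The p53 protein is held at a low level by MDM2, a ubiquitin ligase that p53 itself induces. DNA damage and other stresses stabilise p53, which then binds DNA and raises the transcription of genes for cell cycle arrest, DNA repair, apoptosis, metabolism and its own feedback. CDKN1A encodes p21, the inhibitor of cyclin-dependent kinases that halts the cell cycle. Many of these genes are also read by other transcription factors, so a change in 1 of them is not specific to p53. HNF4A is a nuclear receptor of liver, gut, kidney and pancreas that binds DNA as a homodimer, and its promoters and splicing give isoforms with different ends.

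The DNA just upstream of the start sites is shown for the 2 genes that rose most clearly in lines with isoforms 1 to 3, CDKN1A and NINJ1, and for 2 that fell, FDXR and PIDD1. The sequences are from RefSeq (GRCh38.p14), 5′ to 3′ on the strand of the gene, and capitals mark the GC box GGGCGG on either strand.
CDKN1A, chr6:36678464-36678657, plus strand: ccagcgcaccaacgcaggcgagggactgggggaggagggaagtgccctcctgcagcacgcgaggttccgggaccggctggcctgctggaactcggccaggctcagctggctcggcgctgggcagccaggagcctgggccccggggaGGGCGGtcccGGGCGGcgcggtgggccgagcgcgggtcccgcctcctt
NINJ1, chr9:93134289-93134501, minus strand: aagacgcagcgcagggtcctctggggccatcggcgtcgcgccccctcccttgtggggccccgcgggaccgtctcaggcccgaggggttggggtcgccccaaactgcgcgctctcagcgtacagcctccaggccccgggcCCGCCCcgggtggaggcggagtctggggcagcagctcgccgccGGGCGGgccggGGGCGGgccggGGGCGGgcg
FDXR, chr17:74873032-74873244, minus strand: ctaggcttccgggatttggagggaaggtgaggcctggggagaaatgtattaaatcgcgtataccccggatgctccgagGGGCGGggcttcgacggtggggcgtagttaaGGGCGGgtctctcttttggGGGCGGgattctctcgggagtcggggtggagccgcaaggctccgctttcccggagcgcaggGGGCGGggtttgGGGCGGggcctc
PIDD1, chr11:805246-805481, minus strand: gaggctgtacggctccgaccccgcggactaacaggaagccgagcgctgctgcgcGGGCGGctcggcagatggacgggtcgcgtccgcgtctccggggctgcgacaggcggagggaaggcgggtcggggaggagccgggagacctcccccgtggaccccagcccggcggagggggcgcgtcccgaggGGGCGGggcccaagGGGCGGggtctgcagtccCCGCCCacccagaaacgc
These stretches hold 2, 4, 5 and 4 GC boxes respectively, and their share of G and C was 76.8%, 79.8%, 65.7% and 77.1%. In GENCODE annotation the NINJ1 and FDXR stretches lie directly before the first base of the gene, while the CDKN1A and PIDD1 stretches lie inside the gene, upstream of the first exon of shorter transcripts. Of the 34 genes, 28 had an entry in the RefSeq table, with 41 start sites, and RRM2B, TNFRSF10A, GADD45A, TP53INP1, TNFRSF10B and PHLDA3 had none. In the 250 bases before the start, GGGCGG on either strand was present at 33 of the 41 start sites (80.5%), against 42.6% of 35116 start sites of all genes. The HNF4 element CAAAGTCCA, searched on both strands, was at 0 of 41 starts, against 0.325% of all. The 10-base consensus of a p53 half-site was at 6 of 41 (14.6%), against 5.57% of all. AEN, FAS, FDXR, PLK2, RPS27L and SESN1 each had 1 such start. The FDXR match lies outside the stretch printed above, which held 0. A match is a description of these letters and not a measured binding site.

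HNF4A itself, summed over its isoform rows, was at 31.5 TPM ± 0.589 (SD, n = 3) in the parental cells. TPM is the abundance of transcripts per length, scaled to the same total in each library. The means of the 12 lines were between 613.5 and 1071 TPM. Replicate 1 of isoform 3 stood apart, at 407 TPM of HNF4A against 834 and 772 in the other libraries of that line, so results that rest on isoform 3 are also given without it, an alternative chosen after seeing the data where it concerns sets of lines, gene lists and correlations. The epithelial markers EPCAM (433 to 624 TPM), KRT8, KRT18 and CLDN7 (at least 124.5 TPM) were high in all 39 libraries, while the colon differentiation keratin KRT20 did not exceed 1.24 TPM. The 5 fibroblast markers summed to 7.82 to 15.6 TPM per library, almost all from COL1A1, with DCN and LUM at a median of 0. The 4 leukocyte markers summed to 4.39 to 35.8 TPM, mostly from CD68 (3.1 to 34.7 TPM), with PTPRC at most 0.296 TPM and CD3E at most 0.0549 TPM. CD68 was at 33.1 and 32.6 TPM in isoforms 1 and 2, the lines with the most calls, against 3.85 TPM in the parental cells and at most 17.9 TPM in the other lines. The 3 endothelial markers summed to 1.51 to 6.78 TPM, mostly from PECAM1, which was highest in isoform 1 (5.75 TPM against 2.32 TPM in the parental cells). KRT8 (2396 against 1326 TPM), KRT18 (1607 against 828 TPM) and CDH1 (58.2 against 30.99 TPM) were also highest in isoform 1. The part of these marker differences in the results below was not tested.

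Of the 34 genes, 33 had a mean of at least 1 TPM and were tested. SPATA18, a mitochondrial quality control gene, did not exceed 0.0214 TPM in any library and was not. Each of the 33 varied over the 13 groups by limma's F test (adjusted p under 0.05, 78.6% of 15003 genes tested). A line's difference from the parental cells was called at an adjusted p under 0.05 together with a difference of at least 0.5 in log2(TPM + 1). By that rule 13 of the 33 were called in at least 1 line (28% of all genes) and 7 in at least 3 lines (11.8% of all genes). These shares are not read as particular to the p53 targets. Among the 396 values of a gene in a line, 14 were called higher and 24 lower. This split has no share over all genes beside it and is not read as particular to the p53 targets.

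Lines with isoforms 1 and 2 held the most calls. In isoform 1, 9 genes were called, 3 higher and 6 lower, against 20.3% of all genes. In isoform 2, 9 were called, 2 higher and 7 lower, against 16.4%. With median-of-ratios scaling in place of TPM, the split was 4 higher and 4 lower in isoform 1 and 3 higher and 6 lower in isoform 2. That scaling moved the median of all genes in isoform 1 from -0.107 to 0.015. Shares of all genes are given with TPM only, so counts with the other scaling are not compared with all genes. In isoform 3, 2 were called, both higher, against 3.93%. Without replicate 1 of isoform 3 there were 3, 2 higher and 1 lower, since CYFIP2 was then called lower (-0.58). The lines with isoforms 4 to 6 held few calls: 1 lower in isoform 4 (2.82%), 1 higher in isoform 5 (2.03%) and 0 in isoform 6 (1.34%), where 2 had an adjusted p under 0.05 at any size (10.1% of all genes). In isoform 7, 6 were called, 2 higher and 4 lower, against 9.32%. In isoform 8, 3 were called, 1 higher and 2 lower, against 6.32%, and in isoform 9, 1 lower, against 4.2%. In isoform 10, 1 was called higher, against 7.15%. In isoform 11, 5 were called, 2 higher and 3 lower, against 8.22% (2 higher and 1 lower with the other scaling), and in isoform 12, 0, against 2.53%, with 6 at any size (14.6%). With all libraries, isoforms 1, 2, 7, 8 and 11 thus held calls in both directions. Isoform 3 then held its 2 calls in 1 direction, as the map of differences shows. Isoforms 4, 5, 9 and 10 held 1 call each, so calls in both directions were not possible there.

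**Figure D1:**
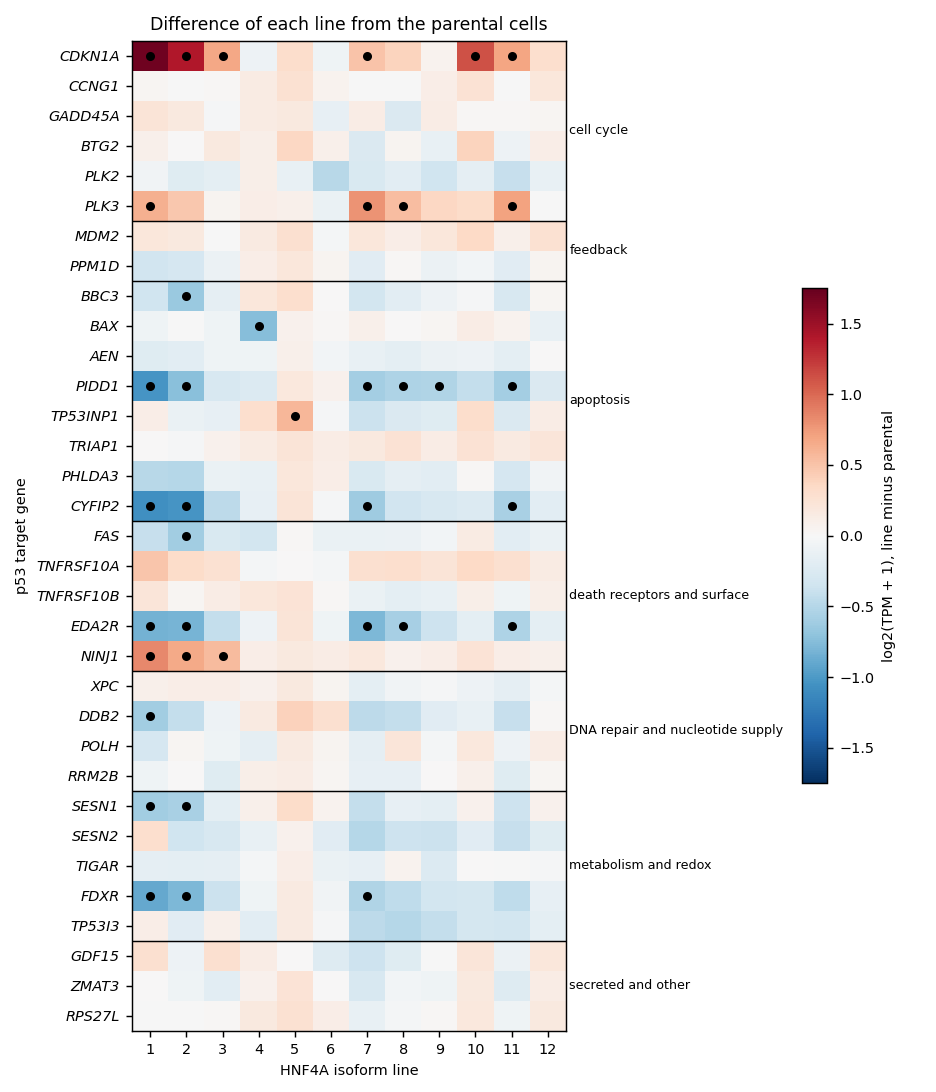
Difference in log2(TPM + 1) of each isoform line (columns, 1 to 12) from the parental cells for the 33 tested p53 target genes (rows, in blocks by role), with a dot where the gene was called. CDKN1A is the darkest red row, reaching 1.71 in isoform 1, and PIDD1, CYFIP2, EDA2R and FDXR are blue in the same lines.

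CDKN1A (chr6:36676460-36687339, plus strand, GRCh38) rose in 6 of the 12 lines, more than any other of the 34 genes. It was at 106, 105 and 100.1 TPM in the parental libraries. In isoform 1 it was at 363, 331 and 331 TPM, in isoform 2 at 260, 296 and 271 TPM, and in isoform 10 at 233, 217 and 230 TPM. These 9 libraries lie above every library of the other groups. The differences from the parental cells on the log2 scale were 1.71 ± 0.085 (SE) in isoform 1 (adjusted p = 1.38e-16), 1.40 in isoform 2 (1.87e-14) and 1.12 in isoform 10 (1.24e-11), with the same SE. Isoform 11 followed at 170, 167 and 169 TPM (0.70, adjusted p = 1.26e-07) and isoform 3 at 139, 193 and 173 TPM (0.68, adjusted p = 5.02e-07). The ranges of isoforms 3 and 11 overlap, and without replicate 1 of isoform 3 the difference in isoform 3 was 0.81 ± 0.08. Isoform 7 was at 156, 147 and 140 TPM, a difference of 0.50, which was 0.46 without its replicate 1 and 0.47 without parental replicate 3, both under the minimum of 0.5. Isoforms 5, 8 and 12 were above the parental cells by less than the minimum (0.30, 0.39 and 0.30, each with an adjusted p under 0.05). In isoforms 4, 6 and 9 the differences were -0.09, -0.07 and 0.06, within the spread between libraries. In annotation an exon of the antisense transcript DINOL overlaps CDKN1A, and whether the quantification used strand is not stated.

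PLK3, a stress-activated kinase of the polo family, rose in 4 lines. The parental libraries held 22.5, 21.03 and 21.1 TPM. Isoform 7, its highest group, held 36.5, 40.5 and 37.1 TPM. Isoform 11 was at 37.8, 36.7 and 33.1 TPM, isoform 1 at 34.9, 35.0 and 31.1 TPM, and isoform 8 at 31.1, 32.5 and 32.1 TPM. No library of these 4 lines overlapped the parental range. The log2 differences were 0.79, 0.71, 0.62 and 0.55 (SE 0.081 each), with adjusted p of 2.71e-09, 2.99e-08, 1.07e-07 and 3.74e-06. Isoforms 2, 9 and 10 also had an adjusted p under 0.05 but stayed under the minimum, at 0.47, 0.36 and 0.33. Exons of TCTEX1D4 overlap PLK3 on the opposite strand, and TCTEX1D4 was called higher in isoforms 1, 2, 7 and 11, at 1.499 to 2.79 TPM. Its part in the PLK3 values was not tested.

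The other cell cycle genes were called in no line. PLK2, the paralogue of PLK3, had its lowest mean in isoform 6 (28.6 TPM, against 40.4 TPM in the parental cells), a log2 difference of -0.48 (adjusted p = 1.29e-05), and had an adjusted p under 0.05 and a lower level in 6 lines. Without replicate 1 of isoform 6 or without parental replicate 3 it passed the minimum there. GADD45A, a stress-induced arrest and repair protein, ranged between group means of 78.9 TPM (isoform 8) and 110.5 TPM (isoform 1). BTG2, an antiproliferative gene, ranged from 21.5 to 34.01 TPM and CCNG1, the p53-induced cyclin G1, from 201 to 243 TPM.

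**Figure D2:**
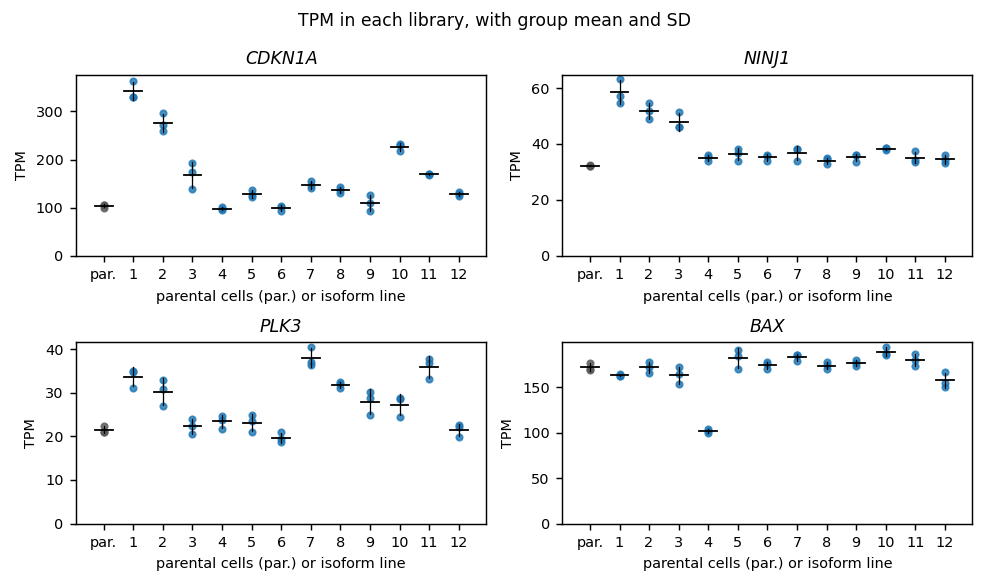
TPM of CDKN1A, NINJ1, PLK3 and BAX in each of the 3 libraries (points) of the parental cells and the 12 isoform lines, with the group mean (horizontal line) and SD (vertical line); axes start at 0. CDKN1A is highest in isoforms 1, 2 and 10, NINJ1 in isoforms 1 to 3, PLK3 in isoforms 7, 11 and 1, and BAX is low in isoform 4 only among the groups plotted.

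NINJ1 (chr9:93121489-93134288, minus strand), a surface protein that ruptures the membrane of dying cells, was the only 1 of the 33 genes whose parental mean lay outside the range of the 12 line means. The parental libraries were at 32.4, 32.0 and 32.3 TPM and all 36 libraries of the lines were higher, from 32.7 TPM upward (0.953% of all genes had all parental libraries below). By group means alone 7.37% of all genes lay below. NINJ1 was at 63.3, 57.3 and 54.8 TPM in isoform 1, at 51.8, 54.7 and 49.0 TPM in isoform 2, and at 45.9, 51.5 and 45.9 TPM in isoform 3. The remaining 9 lines did not exceed 38.5 TPM in any library, so the lines with isoforms 1 to 3 formed a separate upper range. The log2 differences in these 3 lines were 0.84, 0.67 and 0.55 (SE 0.056; adjusted p = 1.4e-13, 2.58e-11 and 1e-08). In isoform 3 the difference was 0.58 without its replicate 1 and 0.497 without its replicate 2, the latter under the minimum. Without parental replicate 2, CCNG1, MDM2 and TRIAP1 also had their parental mean below all lines.

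Among the receptors, EDA2R moved down and TNFRSF10A up, the latter by less than the minimum. EDA2R, the ectodysplasin A2 receptor of the tumour necrosis factor receptor family (chrX:66595637-66639298, minus strand), was at 10.6, 11.7 and 12.2 TPM in the parental libraries. It was at 6.43, 5.60 and 6.03 TPM in isoform 1, at 5.50, 7.07 and 5.82 TPM in isoform 2, and at 5.43, 6.30 and 7.10 TPM in isoform 7. Isoform 8 was at 7.63, 6.65 and 7.86 TPM and isoform 11 at 8.80, 6.99 and 7.00 TPM. All 15 libraries of these lines were below the parental range. The log2 differences were -0.83, -0.81, -0.78, -0.58 and -0.54 (SE 0.098), with adjusted p from 1.84e-08 to 5.2e-05. The isoform 11 value fell under the minimum without replicate 2 or replicate 3 of that line (-0.495 each) and with median-of-ratios scaling (-0.46). FAS, the death receptor CD95, was called lower in isoform 2, at a mean of 8.69 TPM against 13.8 TPM (-0.61, adjusted p = 9.55e-07). TNFRSF10A and TNFRSF10B, the receptors DR4 and DR5 of the death ligand TRAIL, were called in no line. TNFRSF10A nevertheless had an adjusted p under 0.05 and a higher level in 7 lines, with its largest difference in isoform 1 (0.49).

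PIDD1 and CYFIP2 were the apoptosis-linked genes that fell in the most lines. PIDD1 (chr11:799179-809753, minus strand), the death domain scaffold of the PIDDosome that activates caspase-2, was at 31.2, 28.7 and 28.3 TPM in the parental libraries. It was at 15.2, 14.2 and 12.4 TPM in isoform 1 and at 19.2, 15.9 and 16.8 TPM in isoform 2. The log2 differences were -1.03 ± 0.12 (adjusted p = 1.3e-08) and -0.73 ± 0.12 (5.54e-06), and the libraries did not overlap the parental range. Isoform 7 (18.6, 17.2 and 21.7 TPM), isoform 11 (21.2, 18.1 and 18.4 TPM), isoform 8 (18.3, 23.9 and 17.9 TPM) and isoform 9 (26.1, 18.0 and 17.0 TPM) were called as well, at -0.60, -0.59, -0.54 and -0.53. The call in isoform 8 was lost without its replicate 1 (-0.48), its replicate 3 (-0.47) or parental replicate 1 (-0.497). The call in isoform 9 was lost without its replicate 2 or 3 (-0.46 and -0.42), without parental replicate 1 (-0.49), with median-of-ratios scaling (-0.49) and with only the 2 groups in the fit (adjusted p = 0.0638). Exons of the ribosomal protein gene RPLP2 overlap PIDD1 on the opposite strand. RPLP2 was at 3180 to 3545 TPM in the lines and was called in none, with differences from -0.13 to 0.03.

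CYFIP2 (chr5:157266079-157395595, plus strand), an actin-regulating partner of the WAVE complex and a p53 target in apoptosis, was at 33.7, 35.5 and 37.0 TPM in the parental libraries. In isoform 1 it was at 16.8, 17.3 and 15.0 TPM and in isoform 2 at 16.1, 18.0 and 16.3 TPM. Isoform 7 was at 22.3, 22.8 and 22.8 TPM and isoform 11 at 24.4, 24.8 and 21.3 TPM, and all 4 lines lay wholly below the parental libraries. The log2 differences were -1.07, -1.03, -0.62 and -0.57 (SE 0.085; adjusted p = 5.09e-12, 1.48e-11, 6.09e-07 and 2.73e-06). With median-of-ratios scaling the isoform 11 value was -0.49, under the minimum. In isoform 3 the difference was -0.46 with all libraries and -0.58 without replicate 1, which was at 30.2 TPM against 24.8 and 22.0 TPM. Isoform 5 was the highest group, at 41.8, 42.2 and 40.5 TPM, a difference of 0.22 with an adjusted p of 0.0758.

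The remaining apoptosis genes were called in at most 1 line each. BAX, the pore-forming effector of the mitochondrial pathway, was at 102, 104 and 99.96 TPM in isoform 4. Every other library of the series was at 150.6 TPM or more, and the parental libraries were at 177, 170.3 and 169 TPM. The log2 difference in isoform 4 was -0.75 ± 0.042 (adjusted p = 5.09e-14), and in the other lines it lay between -0.13 and 0.13. BBC3, which encodes the BH3-only protein PUMA, was called lower in isoform 2, at a mean of 16.7 TPM against 26.9 TPM (-0.65, adjusted p = 2.24e-06), and had an adjusted p under 0.05 and a lower level in 4 lines. TP53INP1, a stress protein that promotes autophagy and p53 phosphorylation, was called higher in isoform 5. It was at 31.2, 29.4 and 29.2 TPM there and at 18.7, 19.4 and 20.8 TPM in the parental cells, without overlap (0.58 ± 0.129, adjusted p = 0.00198). AEN (an apoptosis-enhancing nuclease), TRIAP1 (an inhibitor of apoptosis) and PHLDA3 (a repressor of AKT) were called in no line. PHLDA3 came close in isoforms 1 and 2 (-0.49 and -0.495), and passed the minimum without parental replicate 2. At any size it was lower in 6 lines and higher in 1, and AEN was lower in 5. TRIAP1 had an adjusted p under 0.05 and a higher level in 8 lines, by at most 0.25.

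**Figure D3:**
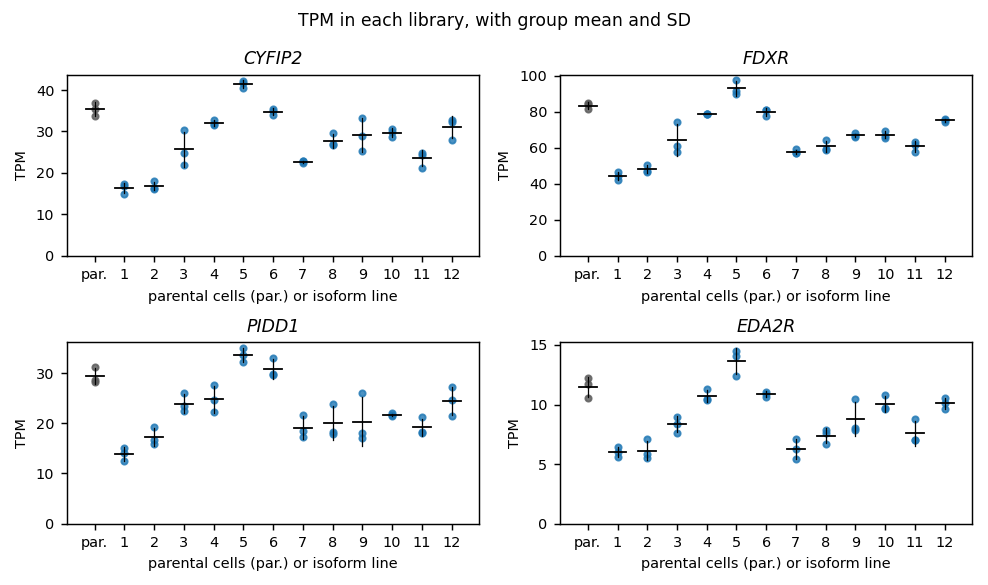
TPM of CYFIP2, FDXR, PIDD1 and EDA2R in each of the 3 libraries (points) of the parental cells and the 12 isoform lines, with the group mean (horizontal line) and SD (vertical line); axes start at 0. The 4 genes share a profile with low values in isoforms 1, 2, 7 and 11 and the highest mean in isoform 5. Isoform 8 is about as low as isoform 11 for FDXR, PIDD1 and EDA2R.

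In the metabolic group, FDXR fell most. FDXR (chr17:74862497-74873031, minus strand), the ferredoxin reductase that supplies electrons to mitochondrial steroid and iron-sulphur cluster synthesis, was at 81.4, 84.8 and 84.1 TPM in the parental libraries. It was at 46.5, 44.5 and 41.8 TPM in isoform 1, at 46.4, 50.5 and 47.1 TPM in isoform 2, and at 59.1, 57.4 and 57.1 TPM in isoform 7. These libraries lay wholly below the parental range, with log2 differences of -0.90, -0.79 and -0.52 (SE 0.057; adjusted p = 2.94e-14, 8.56e-13 and 1.04e-08). FDXR had an adjusted p under 0.05 and a lower level in 8 lines. In isoform 3 the difference was -0.38, and -0.49 without replicate 1. SESN1, a sestrin that restrains mTORC1, was called lower in isoform 1 (11.7 TPM against 18.4 TPM, -0.61) and isoform 2 (-0.57). With median-of-ratios scaling both fell under the minimum (-0.48 and -0.45), as did FDXR in isoform 7 (-0.42). SESN2, its paralogue, was called in no line. It was highest in isoform 1 (17.0 TPM, 0.29, adjusted p = 0.0151) and had a lower level with an adjusted p under 0.05 in 6 lines, down to -0.49 in isoform 7. TP53I3, a quinone oxidoreductase, was at its lowest in isoform 8 (24.2 TPM against 34.6 TPM, -0.499) and passed the minimum there without parental replicate 3. TIGAR, a fructose-2,6-bisphosphatase, ranged between 8.96 and 11.7 TPM.

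Of the repair and nucleotide genes, DDB2 was the single 1 called. DDB2, the damage sensor of global nucleotide excision repair, fell in isoform 1 to a mean of 30.2 TPM from 46.5 TPM (-0.61 ± 0.072, adjusted p = 1.56e-08), but with median-of-ratios scaling the difference was -0.48, under the minimum. It had an adjusted p under 0.05 in 8 lines, 6 lower and 2 higher, and its highest mean was in isoform 5 (61.8 TPM, 0.40). XPC, its partner in damage recognition, stayed between group means of 35.2 and 44.9 TPM. POLH, the translesion polymerase eta, lay between 14.8 and 21.6 TPM, and RRM2B, the p53-inducible ribonucleotide reductase subunit, between 53.5 and 67.7 TPM. Neither was called in any line. Among the secreted and other genes, the stress cytokine GDF15 ranged from 125 TPM (isoform 7) to 196 TPM (isoform 3, or 205.5 TPM without its replicate 1), the RNA-binding ZMAT3 from 6.40 to 9.57 TPM and the ribosomal protein paralogue RPS27L from 152 to 200 TPM, and none of the 3 was called.

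The feedback genes moved little. MDM2 was at a parental mean of 64.6 TPM, and the lines lay between 63.0 TPM (isoform 6) and 82.8 TPM (isoform 10). It was called in no line. Its differences in isoforms 10, 5 and 12 were 0.35, 0.28 and 0.27, with adjusted p of 0.00296, 0.033 and 0.0445. PPM1D, the phosphatase WIP1 that switches off p53 signalling, was lower by 0.33 in isoform 1 and 0.30 in isoform 2 on the log2 scale and higher by 0.20 in isoform 5, each under the minimum.

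In isoform 5 the called gene was TP53INP1 alone, but smaller differences ran mostly upward. Its median difference over the 33 genes was 0.19, against 0.01 over all genes, and 30 of the 33 were above the all-gene median. The differences ran from -0.13 to 0.58. With no minimum, 15 were higher and 0 lower at an adjusted p under 0.05 (9.57% and 5.22% of all genes). With the other scaling these were 17 and 0. Of the 33 genes, 19 had their highest line mean in isoform 5. They include CYFIP2, FDXR, EDA2R, PIDD1, SESN1, DDB2, BBC3, PHLDA3, PPM1D, TP53I3 and TP53INP1. No share over all genes is given for this count, so it is not read as particular to the p53 targets. In isoform 7 the median was -0.17, against -0.06 over all genes, with 6 higher and 18 lower at any size (13.4% and 26.2% of all genes). With the other scaling these were 8 and 11. In isoform 11 it was -0.17, against -0.06, with 4 higher and 16 lower (14.5% and 24%), or 6 and 11 with the other scaling. These shares of all genes are with TPM. None is given for the other scaling, so the counts with it are not compared with all genes. All 12 comparisons share the same 3 parental libraries.

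Over the 12 line means the members formed a graded pattern. FDXR was the gene most like CYFIP2, with Pearson r = 0.98 (Spearman rho = 0.99), followed by SESN1 (0.97), PHLDA3 and PPM1D (0.95 each), EDA2R (0.94), BBC3 (0.92), PIDD1 (0.91) and DDB2 (0.88). Without isoforms 1 and 2, in which CYFIP2 was farthest from its median, these r were between 0.88 and 0.95. With all lines but without replicate 1 of isoform 3 they were between 0.87 and 0.98. CDKN1A, NINJ1, TNFRSF10A and PLK3 ran the other way, with r to CYFIP2 of -0.80, -0.76, -0.81 and -0.68. Without isoforms 1 and 2 the r of CDKN1A was -0.45 and that of NINJ1 was -0.24, while TNFRSF10A stayed at -0.75 and PLK3 at -0.73. MDM2 was near neither, with r of 0.10 to CYFIP2 and 0.24 to CDKN1A. It was not alone in this: XPC (0.08 and 0.09) and PLK2 (-0.02 and 0.17) were among others near neither. These are descriptions over 12 lines that share 1 host line and 1 normalisation to a fixed total. No such r over all genes is given beside them, so they are not read as particular to the p53 targets.

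**Figure D4:**
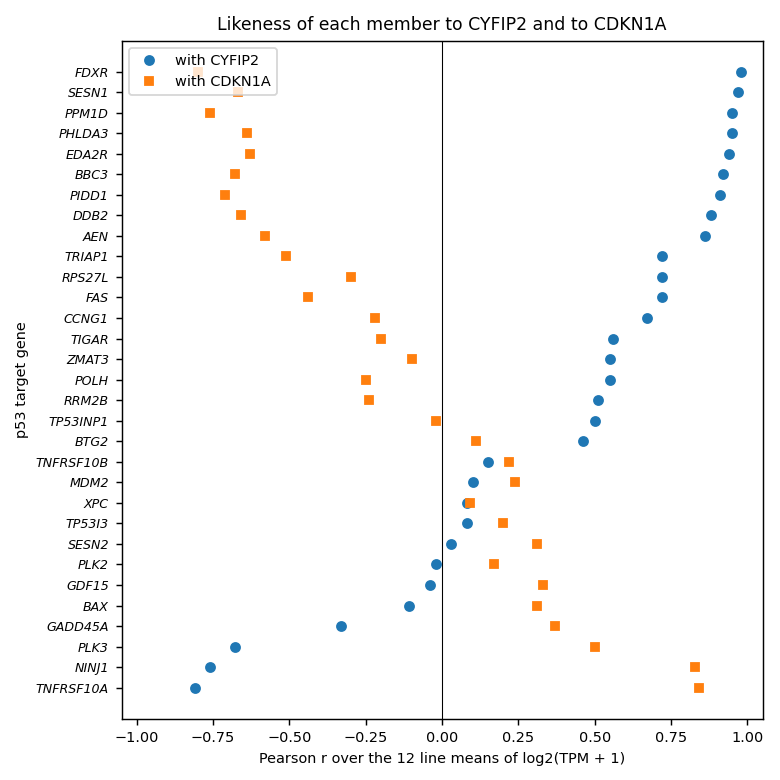
Pearson r of each tested p53 target gene over the 12 line means of log2(TPM + 1), with CYFIP2 (circles) and with CDKN1A (squares). FDXR, SESN1, PHLDA3 and PPM1D sit at 0.95 or above with CYFIP2 and at -0.64 or below with CDKN1A, and TNFRSF10A and NINJ1 sit at the opposite ends.

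Lines can also be compared with one another, which leaves the parental cells out. In the usual numbering, isoforms 1-3, 4-6, 7-9 and 10-12 share an N-terminus within each set, and within a set they differ in the C-terminus. The labels give the number only. An additive limma model on the 12 line means, with 6 residual degrees of freedom, took lines as the units. Between isoforms 4-6 and 1-3, 14 of the 33 genes were called at an adjusted p under 0.05, against 34.6% of all genes. Lower with isoforms 4-6 were CDKN1A (-1.21 ± 0.167, adjusted p = 0.00198), NINJ1 (-0.55 ± 0.059, 0.000694), TNFRSF10A (-0.39) and PLK3 (-0.35). Higher were CYFIP2 (0.87 ± 0.15, adjusted p = 0.00417), EDA2R (0.71), FDXR (0.69), PIDD1 (0.69), DDB2 (0.65), SESN1 (0.61), BBC3 (0.55), PHLDA3 (0.43), PPM1D (0.37) and TRIAP1 (0.14). Of the genes called against the parental cells in isoform 1 or 2, all but FAS (adjusted p = 0.0918 in this model) were among these. Both comparisons use the same libraries of isoforms 1 and 2, so this is not separate support. Between isoforms 7-9 and 1-3, 4 genes were called, all lower with 7-9, against 11.6%: CDKN1A (-0.95), NINJ1 (-0.56), TP53I3 (-0.46) and TNFRSF10B (-0.26). Without replicate 1 of isoform 3 the first comparison called 13 genes, with TRIAP1 lost, and the second 6, with CYFIP2 (0.48) and XPC (-0.20) added. Between isoforms 10-12 and 7-9 limma called 0 of 33 and 0% of all genes. At an unadjusted p under 0.05 there were 3, against 7.55% of all genes. For the insertion in the C-terminus (isoforms 2, 5, 8 and 11 against 1, 4, 7 and 10) it called 0 and 0% of all genes. Unadjusted there were 0, against 3.03%. For the short C-terminus (isoforms 3, 6, 9 and 12 against the rest) it called 0 and 0.0133% of all genes. Unadjusted there were 6, against 18.2%. These counts are not read as particular to the p53 targets.

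**Figure D5:**
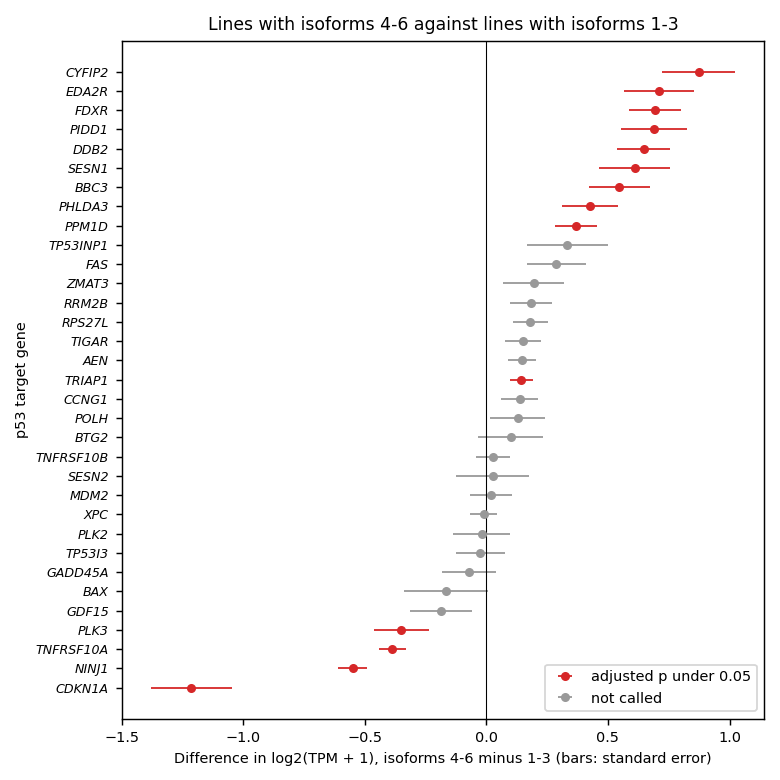
Difference in log2(TPM + 1) between the lines with isoforms 4-6 and those with isoforms 1-3 for each tested p53 target gene, from the additive model on 12 line means, with standard error bars; red points had an adjusted p under 0.05. CDKN1A, NINJ1, TNFRSF10A and PLK3 lie on the negative side and CYFIP2, at 0.87, is the largest on the positive side.

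Other genes of the pathway were read from lists. Of 17 regulators of p53, 16 were tested and 0 were called higher in any line. Over all genes the share called higher ran from 0.74% in isoform 6 to 7.63% in isoform 1. The count of 0 is thus not read as particular to the regulators. CDKN2A, the locus of the p53-stabilising ARF protein, was called lower in isoform 2 (83.6 TPM against 145 TPM, -0.79). The kinase HIPK2 was called lower in isoform 4 (-0.67) and the damage adaptor TP53BP1 in isoform 1 (-0.66). Of all genes, 9.73%, 1.67% and 12.7% were called lower in isoforms 2, 4 and 1. Of 38 other p53 targets, 36 were tested, and the lines with isoforms 1 and 2 again held the most calls. There were 5 higher and 6 lower in isoform 1 (20.3% of all genes called) and 4 higher and 6 lower in isoform 2 (16.4%). Isoform 7 held 2 and 4 (9.32%), isoform 11 held 1 and 4 (8.22%), isoform 8 held 1 and 3 (6.32%), isoform 9 held 1 and 3 (4.2%) and isoform 10 held 1 and 2 (7.15%). Isoform 3 held 2 and 1 (3.93%), or 2 and 2 without its replicate 1. Isoforms 4, 5 and 6 each held 1 higher and 0 lower (2.82%, 2.03% and 1.34%), and isoform 12 held 1 and 1 (2.53%). These counts are not read as particular to the p53 targets. PGPEP1, a pyroglutamyl peptidase, was higher in 11 lines, from 9.74 TPM in the parental cells to 39.2 TPM in isoform 1 (1.91, adjusted p = 7.1e-14). SERPINB5, which encodes maspin, was lower in 6 lines, down to -0.98 in isoform 8.

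The genes that p53 lowers through p21 and the DREAM repressor complex, a set of mitotic genes, were lower in several lines and past the minimum mostly in isoform 1. There 14 of 15 were called lower, against 12.7% of all genes lower, with a list median of -0.67 against -0.11 over all genes. With median-of-ratios scaling 10 of 15 were called lower. In isoform 2, 3 were called lower (1 with that scaling), against 9.73% of all genes lower. In isoforms 10 and 11 it was 1 each, against 3.43% and 5.01%. With no minimum, isoforms 1 and 11 had 14 lower each (38.7% and 24% of all genes), isoforms 2 and 10 had 13 each (35.6% and 20.4%) and isoform 7 had 8 (26.2%). Median-of-ratios scaling lowered these counts to 6 in isoform 11 and 3 in isoform 7. The shares of all genes here are with TPM, and none is given for that scaling. The topoisomerase TOP2A was lower in isoforms 1, 2, 10 and 11 (-1.02, -0.78, -0.62 and -0.59), and the survivin gene BIRC5 (-0.82 and -0.52) and the mitotic kinase PLK1 (-0.73 and -0.52) in isoforms 1 and 2. Of 12 targets of the stress factors ATF4 and CHOP, 6 were called higher and 1 lower in isoform 1, against 7.63% of all genes higher. CHAC1, a glutathione-degrading enzyme of that response, was at 42.6, 13.8 and 48 TPM in isoform 1. Its parental mean was 4.84 TPM, and the log2 difference was 2.44 (adjusted p = 5.17e-10). For all 6 genes called higher, replicate 2 was the lowest isoform 1 library, yet above every parental library. SLC7A11 was at 7.32, 4.55 and 7.95 TPM there, against at most 4.09 TPM in the parental libraries. ATF3 was higher in isoforms 1 and 7 (1.33 and 0.61), and PHGDH, the first enzyme of serine synthesis, was lower in 6 lines, down to -1.13 in isoform 1. SESN2, GDF15 and TNFRSF10B are also known targets of ATF4 or CHOP, and the part of that response in the isoform 1 values was not tested.

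The authors' deposited tables give their own comparison of each line with the parental cells, from counts rather than TPM. Of the 38 values called above, 37 also passed 0.05 with the same sign in the authors' deposited tables. In the authors' deposited tables MDM2 had an adjusted p under 0.05 and was higher in 11 lines, all but isoform 6, with log2 fold changes from 0.13 to 0.39. In the same authors' deposited tables TRIAP1 was higher in 10 lines (up to 0.29), CDKN1A in 9 (up to 1.85) and CYFIP2 lower in 9 (down to -0.96). Of the 34 genes, 15 were higher and 10 lower in isoform 1 at an adjusted p under 0.05 in the authors' deposited tables. Higher and lower counts there were 13 and 11 in isoform 2, 11 and 5 in isoform 3, and 16 and 2 in isoform 4. They were 21 and 0 in isoform 5, 3 and 3 in isoform 6, and 8 and 13 in isoform 7. Isoforms 8 and 9 held 6 and 13, and 3 and 7. Isoforms 10 to 12 held 16 and 4, 7 and 11, and 6 and 2. No share over all genes is given for these counts, so they are not read as particular to the p53 targets.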

How the data were processed

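RNA-seq of 39 libraries in 13 groups of 3 was analysed. Per the submitters' processing notes the tools were Trimmomatic 0.36, FastQC 0.11.5, kallisto 0.44.0 and DESeq2 1.22.2 and the build was GRCh38.p12; the sources used here do not give how they were run, strand option included. The deposited tables, 1 per group, hold TPM per library, made by the authors. The authors' tables of the lines also hold their mean normalised counts (a signal), log2 fold change with standard error, a statistic (a score) and p-values, per the file headers; these entered no fit and were only set beside the results. TPM columns summed to between 999972.6 and 999987.7. Depth per library is unknown from TPM, so no counting interval is given; the authors' mean counts summed to between 50609338 and 56136330 per table. The rows named for HNF4A isoforms (12) were summed.

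limma 3.58.1 in R 4.3.3 was fitted on log2(TPM + 1) of the 15003 rows with a mean of at least 1 TPM, with 13 groups in 1 model and 26 residual degrees of freedom. Fold changes on this scale understate low genes. Adjustment was by Benjamini-Hochberg over all rows tested within each comparison. Isoform sets were compared in a second limma model on line means. The code was tested on simulated data. Genes called in at least 3 lines, or with the parental mean outside the lines, are given with every library's value, others by range; of other lists the 3 called in most lines are named, except that some genes of the lists are not reported here. BAX, TP53INP1 and further members were detailed after their values were seen. The members and all lists were chosen with earlier results of these data known. The main model has no replicate block. The labels give the 6 libraries of isoforms 4 and 5 no separate number. Gene positions are from GENCODE on GRCh38. Exons of 14 members overlap those of a gene on the other strand. Alternatives were the pseudocount (0.1), the filter (none, or 5 TPM), median-of-ratios scaling, the minimum fold (none, or 1), 2-group fits, the block and leaving out each library.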

Additional observations from a re-analysis of the deposited data

Results flagged for a closer look

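Values of the p53 targets that differed between sets of lines in the test of that difference itself, on line means of log2(TPM + 1), are listed here. Lines with isoforms 4-6 were below those with isoforms 1-3 for CDKN1A (-1.21), NINJ1 (-0.55), TNFRSF10A (-0.39) and PLK3 (-0.35). They were above them for CYFIP2 (0.87), EDA2R (0.71), FDXR (0.69), PIDD1 (0.69), DDB2 (0.65), SESN1 (0.61), BBC3 (0.55), PHLDA3 (0.43), PPM1D (0.37) and TRIAP1 (0.14). Lines with isoforms 7-9 were below those with isoforms 1-3 for CDKN1A (-0.95), NINJ1 (-0.56), TP53I3 (-0.46) and TNFRSF10B (-0.26). Each set holds 3 lines, and 34.6% and 11.6% of all genes differed in these comparisons by the same rule.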

How the results depend on the processing

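Of the 38 called values of a member in a line, recomputed under the alternatives other than the minimum fold (454 values), 435 kept their direction and call, 19 kept their direction but lost the call and 0 turned. With no minimum fold the counts of members called rose to 20, 21, 9, 5, 15, 2, 24, 16, 12, 14, 20 and 6 in isoforms 1 to 12. In the same order, 58.5%, 55.3%, 26%, 16.3%, 14.8%, 10.1%, 39.6%, 34.4%, 22.7%, 37.3%, 38.5% and 14.6% of all genes passed. With a minimum of 1, 6 of the 38 calls were left: 3 and 2 in isoforms 1 and 2, 1 in isoform 10 and 0 in isoforms 3, 4, 5, 7, 8, 9 and 11. Of all genes, 4.52%, 3.73% and 1.44% passed in isoforms 1, 2 and 10. In the lines just named with 0, the share ran from 0.293% (isoform 5) to 2.08% (isoform 7). Median-of-ratios scaling gave 0 in isoform 9, 3 in isoform 11 and 3 members with the parental mean outside the lines (CCNG1, TRIAP1 and NINJ1). The isoform 9 count was also 0 with only the 2 groups fitted. With no filter on low values 1 member differed between isoforms 7-9 and 1-3, where more rows were tested. Leaving out 1 library gave counts of 9 to 11 in isoforms 1 and 2, 1 to 3 in isoform 3, 0 to 1 in isoforms 6 and 9, 5 to 9 in isoform 7, 2 to 4 in isoform 8 and 4 to 5 in isoform 11. The counts in isoforms 4, 5 and 10 were 1 and that in isoform 12 was 0 throughout. Members varying over the groups were 31 to 32 when 1 replicate number was left out, those differing between isoforms 4-6 and 1-3 were 12 to 14 and between 7-9 and 1-3 3 to 6. The parental mean lay outside the lines for 1 to 4 members when 1 parental library was left out, an alternative chosen after seeing the data: 4 without replicate 2 and 2 without replicate 3. With the replicate block the counts were 9, 9 and 2 in isoforms 1 to 3, 0 in isoform 6, 6, 3, 1, 1, 5 and 0 in isoforms 7 to 12, and 33 members varied, as without it. The numbers were not taken as pairing the libraries: the deviations of same-numbered libraries of a line and the parental cells correlated at -0.047 to 0.187, above 0.1 in 4 of 30 pairs. Depth was not known, so it sets no stated limit here.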
